A study of Mus musculus with 6 samples.

Results

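The chemokine ligands are the small secreted or membrane-bound proteins that steer leukocytes, and here they were the 33 genes measured through probe sets whose single annotated symbol was a Ccl or Cxcl gene, Cx3cl1 or Xcl1. They were 33 of 18193 genes on the array and took up 51 of its 45101 probe sets. Each ligand was represented by its brightest probe set, the one with the highest mean log2 signal over 6 arrays. The 6 arrays held aortic root RNA from mice of strain C57BL/6J albino, aged 6.0 to 6.5 weeks. In 3 arrays the mice were homozygous for a mutant klotho allele (klotho-deficient), and in 3 they were homozygous for the wild-type allele (wild type). Each array carried RNA from 3 pooled roots, so 9 mice stood behind each genotype and a single animal cannot be seen. The dissected root joined valve leaflets, annulus and ascending aortic wall, so a signal here averages over all of these. The mutation is present in the whole animal rather than in 1 cell type, and the labels do not name the allele.

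Chemokines are sorted by the spacing of their first cysteines into the CC, CXC, CX3C and C classes, and they act through G protein-coupled receptors on the target cell. Many are induced by NF-kB or interferon signalling and call in neutrophils, monocytes or T cells during inflammation, while others are made constantly and hold cells in place or guide their traffic. In arteries and valves they come from endothelium, smooth muscle, fibroblast-like interstitial cells and resident macrophages. Mice without klotho, the co-receptor for the hormone FGF23, age early and calcify soft tissues.

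The targeted transcript did not separate the genotypes, since Kl measured 138.3, 217.4 and 189.1 in klotho-deficient roots and 166.7, 184.7 and 202.1 in wild type. These signals lie close to background, with a mean level 1.12 times the highest Bacillus control, so they do not show Kl to be expressed alike in both. Kl therefore gives no check of the labels. Transcripts of 3 Y-linked genes stood above background in klotho-deficient pool 1 and in each wild-type pool, but in neither of the remaining klotho-deficient pools. The array that stands out in what follows, klotho-deficient replicate 2, is thus 1 of the 2 without Y-linked transcripts. No wild-type pool lacked them, so by these transcripts the sex of the pooled mice was not balanced between the genotypes. Sex and genotype therefore cannot be fully told apart here. With Y-linked transcripts as a covariate, which sets klotho-deficient replicate 1 alone against wild type, several ligand differences moved widely, and those values are given beside the ligands. The tissue carried its defining markers on every array: all 6 smooth muscle genes and all 7 fibroblast and valve interstitial genes were above background. In whole tissue, fewer cells of a type cannot be told from less RNA per cell.

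Background was taken as 161.8, the highest signal among 27 control probe sets for Bacillus genes. Of the 33 ligands, 19 had a mean log2 signal over the 6 arrays above that level. Cxcl2, Cxcl5, Cxcl9 and Ccl7 exceeded it in the mean log2 signal of 1 genotype. Ccl4, Ccl22, Cxcl11, Cxcl15 and Cxcl17 exceeded it on at least 1 array but in neither genotype mean, and Ccl1, Ccl3, Ccl20, Cxcl3 and Xcl1 on 0 arrays. In limma with Benjamini-Hochberg adjustment over all genes, 0 of the 33 ligands passed a threshold of 0.05, against 0% of all 18193 genes. At an unadjusted p under 0.05, 0 ligands were higher in klotho-deficient roots and 1, Ccl27a, was lower, against 3.25% of all genes higher, 3.16% lower and 6.41% either way. Among the 19 ligands above background the groups did not overlap for 0 in the higher direction and for 1 in the lower, again Ccl27a. Of the 13322 genes above background, 6.95% were apart and higher, 7.86% apart and lower, and 14.8% either way, so the ligands were not above that share. The median difference over the 19 ligands was -0.04 on the log2 scale and that over all genes above background was -0.01. In the plot of all ligand signals the genotypes lie over each other for most ligands, with a few points on klotho-deficient replicate 2 far above the rest.

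**Figure D1:**
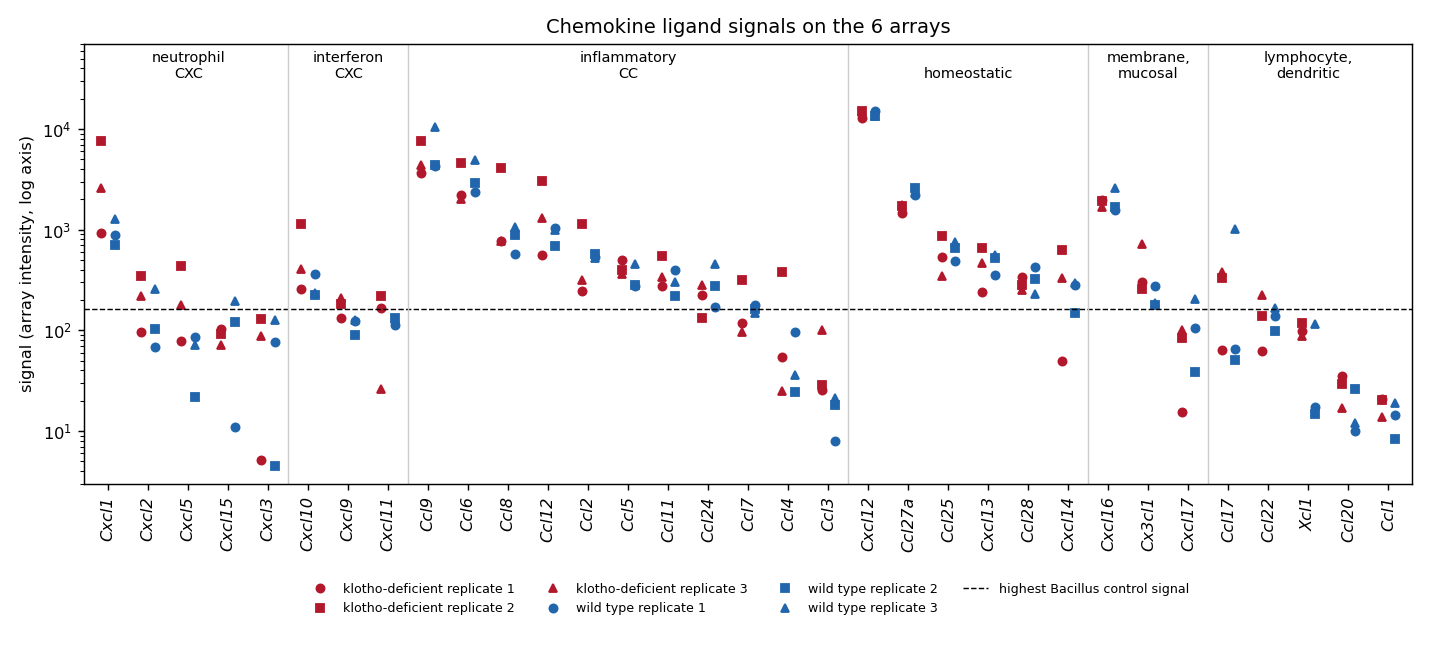
Signal of each of the 33 chemokine ligands on each array (array intensity, log axis), klotho-deficient arrays in red and wild-type arrays in blue, with the dashed line at the highest Bacillus control, 161.8. Cxcl1 on klotho-deficient replicate 2 reached 7667.7, while the Ccl27a arrays of the 2 genotypes are apart, at 1449.2 to 1771.6 in klotho-deficient roots and 2226.1 to 2607.9 in wild type.

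Cxcl1, a neutrophil attractant that acts through Cxcr2, was the ligand with the widest genotype difference among those above background. It measured 920.1, 7667.7 and 2586.6 on klotho-deficient arrays 1, 2 and 3, against 876, 709.8 and 1286.7 on the wild-type arrays. Klotho-deficient replicates 2 and 3 were above every wild-type array and replicate 1 lay within their range. The difference, klotho-deficient minus wild type, was 1.50 ± 0.76 on the log2 scale (± SE), with an adjusted p of 0.796 in limma. The other Cxcl1 probe sets ran the same way, with differences of 1.61 and 1.59. In the dimmer of them the klotho-deficient arrays at 436.6, 1781 and 705.8 all lay above the wild-type arrays at 210.9, 350.9 and 263.6. Without klotho-deficient replicate 2 the Cxcl1 difference was 0.73, and with Y-linked transcripts as a covariate it was -0.01.

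The other 4 neutrophil-directed CXC ligands had a mean log2 signal over the 6 arrays below background. Cxcl5, which is made by epithelial and stromal cells, measured 79, 434.9 and 177.8 in klotho-deficient roots and 85.4, 21.9 and 71.6 in wild type, where it was below background. Its klotho-deficient level was at least 1.13-fold higher (adjusted p = 0.77 in limma), a bound that rests on replicate 2, since the mean of the other klotho-deficient arrays is below background. The groups overlapped, with klotho-deficient replicate 1 below wild-type replicate 1. Cxcl2 was 95.3, 345.7 and 218.7 against 68.1, 103.1 and 259.2, a difference of 0.66 ± 0.66 with overlapping groups. Cxcl3 stayed below background on all arrays, and Cxcl15, a lung chemokine of the mouse, passed it on wild-type replicate 3 alone (194.2). Cxcl2 and Cxcl5, like Cxcl1, were highest on klotho-deficient replicate 2.

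Interferon-induced ligands bind Cxcr3 on activated T cells. Cxcl10 measured 257.2, 1148.2 and 405.7 in klotho-deficient roots and 363.6, 224.5 and 233.2 in wild type (0.89 ± 0.57, adjusted p = 0.825 in limma). Again replicate 2 was highest, and replicate 1 fell inside the wild-type range. The Cxcl10 difference was 0.28 without replicate 2 and -0.05 with the Y-linked covariate. Cxcl9 was 133.4, 181.3 and 208.2 against 124.9, 89.6 and 127.4, close to background, with arrays that did not overlap (0.61 ± 0.26, adjusted p = 0.77 in limma). Its dimmer probe set gave -0.59, so the Cxcl9 probe sets disagree. Cxcl11, which RefSeq lists as a transcribed pseudogene in C57BL/6J, stayed between 26.2 and 217.9 in klotho-deficient roots and between 113.7 and 132.4 in wild type.

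Promoter windows are shown for Cxcl1, Cxcl10, Ccl12 and Ccl8 because their signals were highest on the same array, and for Cxcl2 and Cxcl3 as the relatives of Cxcl1. RefSeq promoters (GRCm38.p6, 250 bases before to 50 after the gene start) were found for 23 of the 33 ligands. The other 10, Ccl2, Ccl4, Ccl5, Ccl7, Ccl11, Ccl24, Cxcl5, Cxcl11, Cxcl16 and Cxcl17, could not be searched. Among these, Ccl2, Ccl4, Ccl7, Ccl11, Cxcl5 and Cxcl11 were highest on klotho-deficient replicate 2. Both strands were searched for the kB element, the NF-kB consensus, and for the tandem GAAA element, a GAAA followed after any 2 bases by another GAAA, a core of the interferon-stimulated response element. A kB match was present in 7 of 23 ligands, against 5.14% of all genes with a promoter, and the tandem GAAA element in 2 of 23, against 3.99%. Besides Cxcl1, Cxcl2, Cxcl3 and Cxcl10, the kB matches were in Ccl9, Ccl20 and Ccl27a, which were highest on other arrays than klotho-deficient replicate 2. Ccl20, like Cxcl3, was below background on all arrays, so its highest array means little. The Ccl27a match starts 30 bases after the gene start, in 1 of several promoters of that gene. Cxcl12, Cxcl13, Cxcl14 and Ccl25 were highest on klotho-deficient replicate 2 and had no kB match. For Cxcl12 the margin was small, 15185 against 15051 on wild-type replicate 1. Cxcl1, Cxcl2 and Cxcl3 share 1 run of letters, which matches the kB element on both strands with an offset of 1 base, starting 71, 97 and 73 bases before the gene start. These 31-base windows are written 5′ to 3′ with the kB match in capitals:
Cxcl1: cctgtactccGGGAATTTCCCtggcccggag
Cxcl2: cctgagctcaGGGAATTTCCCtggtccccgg
Cxcl3: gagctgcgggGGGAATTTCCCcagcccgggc

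Cxcl10 holds 2 kB matches, GGGAAATTCC and GGGACTTCCC, starting 159 and 103 bases before the gene start, and the tandem GAAA match GAAAGTGAAA starting 213 bases before it. The windows of Ccl12 and Ccl8, CC ligands that were also highest on klotho-deficient replicate 2, hold neither motif, which says only that these letters are not in this window. A match is a string of letters and not a bound site. In the full windows below, capitals again mark the matches:
Cxcl1 (chr5:90890995-90891294, plus strand): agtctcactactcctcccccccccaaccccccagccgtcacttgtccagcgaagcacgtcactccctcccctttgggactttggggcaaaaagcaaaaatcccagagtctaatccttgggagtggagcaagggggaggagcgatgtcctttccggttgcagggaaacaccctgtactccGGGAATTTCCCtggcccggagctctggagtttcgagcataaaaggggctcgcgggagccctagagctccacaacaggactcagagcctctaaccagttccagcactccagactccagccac
Cxcl10 (chr5:92348840-92349139, minus strand): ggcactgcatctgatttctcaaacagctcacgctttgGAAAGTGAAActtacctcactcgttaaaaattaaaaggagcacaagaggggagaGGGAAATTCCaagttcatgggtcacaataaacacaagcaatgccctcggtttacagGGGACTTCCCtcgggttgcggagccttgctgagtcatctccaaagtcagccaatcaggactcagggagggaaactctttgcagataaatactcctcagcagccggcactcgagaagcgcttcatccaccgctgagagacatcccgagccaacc
Ccl12 (chr11:82101595-82101894, plus strand): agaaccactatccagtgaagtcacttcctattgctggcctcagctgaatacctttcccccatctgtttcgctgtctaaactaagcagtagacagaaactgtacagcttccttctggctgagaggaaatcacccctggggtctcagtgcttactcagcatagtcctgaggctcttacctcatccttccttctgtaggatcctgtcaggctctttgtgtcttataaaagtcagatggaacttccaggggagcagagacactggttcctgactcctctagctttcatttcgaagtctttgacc
Ccl8 (chr11:82114935-82115234, plus strand): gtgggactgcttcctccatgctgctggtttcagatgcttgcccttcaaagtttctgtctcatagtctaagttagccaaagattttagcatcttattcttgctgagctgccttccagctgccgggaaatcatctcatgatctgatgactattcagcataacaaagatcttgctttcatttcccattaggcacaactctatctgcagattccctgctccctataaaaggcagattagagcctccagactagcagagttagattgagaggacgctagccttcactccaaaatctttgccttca

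A run of CC ligands lies side by side in the mouse genome, in the order Ccl2, Ccl7, Ccl11, Ccl12, Ccl8 and Ccl1. RefSeq places no other protein-coding gene between them. The first 5 of these 6 had their highest signal on klotho-deficient replicate 2, and Ccl1, an attractant of Ccr8-bearing T cells, was below background throughout. Ccl8 measured 763.2, 4062.3 and 776.7 in klotho-deficient roots and 579.1, 888.7 and 1063.2 in wild type (0.71 ± 0.70, adjusted p = 0.878 in limma). Apart from replicate 2 its klotho-deficient arrays lay within the wild-type range, and the difference was -0.09 without that array and -0.10 with the Y-linked covariate. Ccl12, a Ccr2 ligand found in rodents, was 557.8, 3016.6 and 1303.6 against 1035.7, 692.9 and 990 (0.54 ± 0.61). Replicate 1 was here below every wild-type array, and the Ccl12 difference was -0.07 without replicate 2 and -0.68 with the Y-linked covariate.

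Ccl2, the main monocyte attractant through Ccr2, showed the same array apart from the others. It measured 248.7, 1149.5 and 314.6 in klotho-deficient roots and 536.4, 570.3 and 519.8 in wild type. The wild-type arrays sat close together, with klotho-deficient replicate 2 above and replicates 1 and 3 below all of them. Its difference was -0.27 ± 0.58 with all arrays (adjusted p = 0.944 in limma), -0.95 without replicate 2 and -1.12 with the Y-linked covariate. Ccl7, another Ccr2 ligand, was 118.1, 314.9 and 96.6 against 178.1, 162.5 and 148.9, near background, again with klotho-deficient replicate 2 above and replicates 1 and 3 below all wild-type arrays. Ccl11, the eosinophil attractant eotaxin, was 276.4, 549.1 and 342.6 against 395.8, 221.5 and 303.5 (0.32 ± 0.34).

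A second run of neighbours held Ccl5, Ccl9, Ccl6, Ccl3 and Ccl4. Ccl9 and Ccl6, ligands of Ccr1 made by myeloid cells of rodents, were highest on wild-type replicate 3. Ccl9 measured 3619.6, 7632.1 and 4380.8 in klotho-deficient roots and 4291.7, 4384.4 and 10464 in wild type (-0.23 ± 0.46). Ccl6 was 2213.6, 4569.7 and 2016.8 against 2370.3, 2883.6 and 4923 (-0.24 ± 0.42), and its other probe set gave 0.23. In both genes 1 array of each genotype, klotho-deficient replicate 2 and wild-type replicate 3, stood over the other 4. Ccl5, a T cell and monocyte attractant, was 500.2, 394.6 and 359.7 against 273, 280.4 and 459.5 (0.34 ± 0.28), and its groups overlapped through wild-type replicate 3. Ccl3 and Ccl4, macrophage inflammatory proteins, were dim: Ccl3 was below background on all arrays and Ccl4 passed it on klotho-deficient replicate 2, at 376.9. Of the 11 inflammatory CC ligands 8 were above background, 4 higher and 4 lower, with a median difference of 0.04. Ccl24, an eotaxin encoded elsewhere, was 225.7, 131.8 and 280.7 against 169.2, 275.5 and 457.3 (-0.45 ± 0.45).

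**Figure D2:**
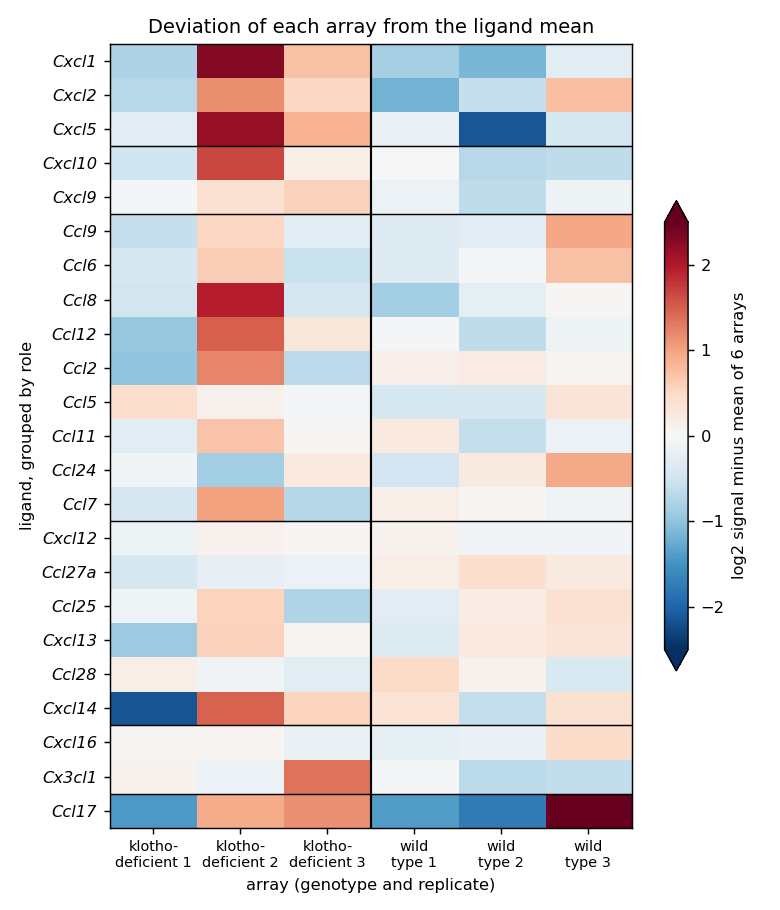
Log2 signal of each array minus the mean of the 6 arrays, for the 23 ligands above background in the mean of all arrays or of a genotype (rows, grouped by role), with klotho-deficient arrays left of wild-type arrays. The klotho-deficient replicate 2 column is red for Cxcl1, Cxcl10, Ccl8, Ccl12 and Ccl2, whereas Ccl9, Ccl6, Ccl24 and Ccl17 are reddest on wild-type replicate 3.

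The array with the highest signal was counted for each ligand. Of the 19 ligands above background, 10 were highest on klotho-deficient replicate 2, against 18.9% of all 13322 genes above background. A further 5 were highest on wild-type replicate 3, which held the highest signal of 25.5% of all genes. Klotho-deficient replicates 1 and 3 and wild-type replicates 1 and 2 held the highest signal of 1 ligand each, against 12%, 24.5%, 8.94% and 10.2% of all genes. The median deviation of the 19 ligands from their own means was -0.45, 0.57 and 0.04 on klotho-deficient arrays 1, 2 and 3 and -0.24, -0.24 and 0.23 on the wild-type arrays. The lowest and the highest of these medians both belonged to klotho-deficient arrays, as the heat map of deviations shows. The parts of cell makeup and of the sex of the pooled mice in this pattern were not tested.

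Among homeostatic ligands, which guide resident cells and lymphocytes, Ccl27a was the ligand whose genotypes were apart. All 6 were above background, with 1 higher and 5 lower in klotho-deficient roots and a median difference of -0.15, or -0.51 without klotho-deficient replicate 2. Ccl27a, an attractant of Ccr10-bearing skin T cells, measured 1449.2, 1705.1 and 1771.6 in klotho-deficient roots and 2226.1, 2607.9 and 2318 in wild type. Every klotho-deficient array lay below every wild-type array. The difference was -0.54 ± 0.18, or 1.45-fold higher in wild type, with an unadjusted p of 0.0228 and an adjusted p of 0.724 in limma. It ran from -0.60 to -0.45 when each array was left out in turn and was -0.71 with Y-linked transcripts as a covariate. The probe set used can cross-match near-identical copies: 2 more probe sets, each annotated to 5 genes with Ccl27a and Ccl27b among them, also did not overlap. One gave 1107.8, 1157.1 and 1059 against 1859.1, 2235 and 2254.5, and the other 3128.4, 3086.8 and 2349.5 against 4450.8, 4296 and 4325.2. Which copy carries the difference cannot be told from these probes.

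Cxcl12, which retains stem cells and leukocytes through Cxcr4, differed little in its brightest probe set. It measured 12854, 15185 and 14637.3 in klotho-deficient roots and 15051, 13365.5 and 13475.9 in wild type, at 86.9 times the highest control. The difference was 0.03 ± 0.17, with a 95% interval from -0.39 to 0.44. The other Cxcl12 probe sets gave larger differences, 0.48 and 1.68. In the second brightest the values were 3308.5, 5278.9 and 7400.1 against 3636.4, 3661.9 and 3584.6, with klotho-deficient replicates 2 and 3 above wild type and replicate 1 below it. In the dimmest they were 269.1, 398.3 and 134.6 against 118.8, 96.9 and 38.5, so the groups were apart and all wild-type arrays were below background.

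The other homeostatic ligands did not separate the genotypes. Cxcl14, an epithelial and stromal chemokine, measured 50.1, 624.1 and 331.3 against 282.6, 148.9 and 293.3 (-0.08 ± 0.93), and its other probe set gave 0.82. The Cxcl14 difference was -0.84 without klotho-deficient replicate 2 and -2.21 with the Y-linked covariate. Klotho-deficient replicate 1 was the lowest Cxcl14 array and replicate 2 the highest. Cxcl13, the B cell attractant, was 237.7, 658.7 and 466.5 against 356, 525.4 and 556.9 (-0.17 ± 0.42), or -0.99 with the Y-linked covariate. Ccl25, which draws Ccr9-bearing thymocytes, was 536.6, 857.5 and 344.2 against 483.9, 656.1 and 750.8 (-0.20 ± 0.38), with 0.22 in a dimmer probe set whose groups did not overlap. Ccl28, a mucosal ligand of Ccr10, was 335.8, 282.8 and 249.3 against 421.2, 322.2 and 231.8 (-0.14 ± 0.27).

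Cx3cl1 and Cxcl16 are made as membrane-anchored proteins that also act as adhesion molecules. Cx3cl1, fractalkine, which holds Cx3cr1-bearing monocytes on endothelium, measured 299.5, 257.3 and 725.2 in klotho-deficient roots and 277.8, 178 and 186 in wild type. Here klotho-deficient replicate 3 and not replicate 2 was the highest. Its difference was 0.87 ± 0.44 (adjusted p = 0.796 in limma), the second Cx3cl1 probe set gave 1.22, and both overlapped between genotypes. Without klotho-deficient replicate 3 the difference was 0.41. Cxcl16, a scavenger receptor and ligand of Cxcr6, was 1956.6, 1943.8 and 1667.3 against 1586.3, 1669.7 and 2581.7 (-0.04 ± 0.25). Cxcl17, a mucosal chemokine, passed background on wild-type replicate 3, at 204.6.

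Ligands of lymphocyte and dendritic cell traffic were mostly dim. Ccl17, a Ccr4 ligand typical of dendritic cells, measured 63.2, 327.4 and 377.4 in klotho-deficient roots and 65.2, 50.5 and 1009.7 in wild type (0.41 ± 1.31). A single wild-type array held the highest value and the other 2 were below background. Without that array the difference was 1.79, without wild-type replicate 2 it was -0.37, and with the Y-linked covariate -1.24. Ccl22, also a Ccr4 ligand, stayed between 61.8 and 224.2 in klotho-deficient roots and between 97.8 and 165.4 in wild type. Ccl20, which draws Ccr6-bearing cells, and Xcl1, made by activated T and NK cells, were below background on all arrays.

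**Figure D3:**
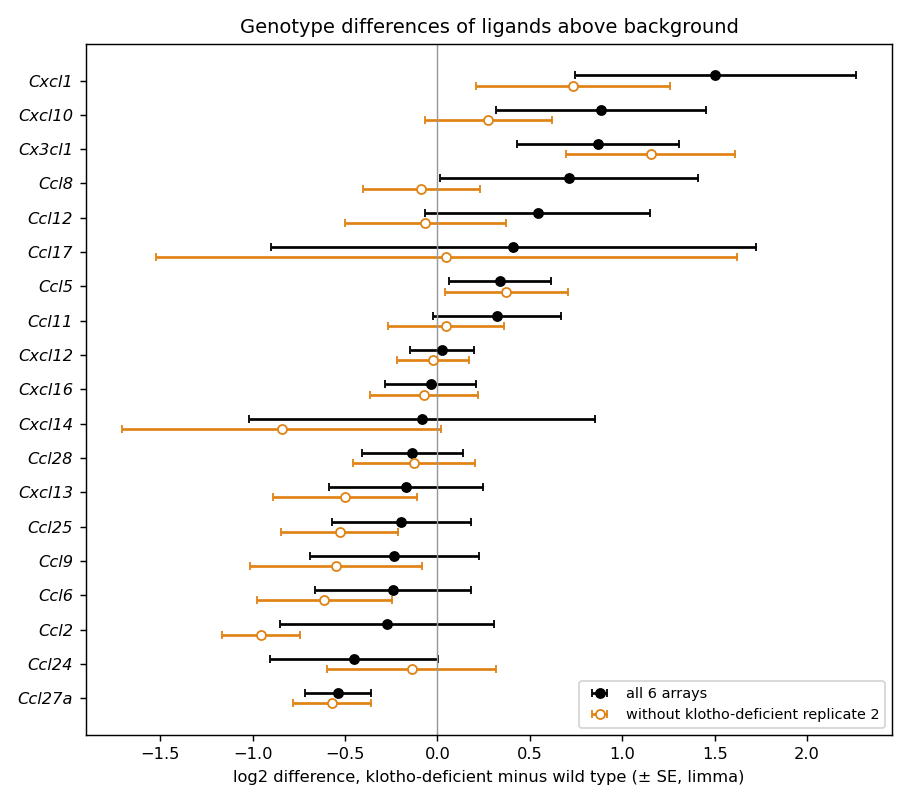
Log2 difference, klotho-deficient minus wild type (± SE from limma), of the 19 ligands above background, with all 6 arrays (black) and without klotho-deficient replicate 2 (open orange). With that array left out Cxcl1 is at 0.73, against 1.50 with all arrays, and Ccl8 at -0.09, against 0.71, while Ccl27a is at -0.57 and -0.54.

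The genes that receive, induce and process chemokines were set beside the ligands. Of 74 such genes measured in 8 lists, 0 passed in limma over all genes. At an unadjusted p under 0.05, 1 was higher and 1 lower, where 3.25% of all genes were higher and 3.16% lower. The higher one, Il6, passed background on 1 array, and the lower one, Cxcr5, on 0 arrays. Among the 56 genes above background the groups did not overlap for 3, with 1 higher and 2 lower. The shares among all genes above background were 6.95% higher and 7.86% lower. The median difference of these 56 was 0.07.

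Of 16 signalling receptors measured, 7 were above background, and 5 of these 7 were highest on klotho-deficient replicate 2. Ccr2, the receptor of Ccl2, Ccl7 and Ccl12 on monocytes, measured 530.5, 1212.4 and 632.4 in klotho-deficient roots and 588, 523 and 416.1 in wild type (0.56 ± 0.35). Ccr1, which binds Ccl6 and Ccl9, was 302.4, 432.1 and 207.8 against 287.4, 194 and 164.2 (0.52 ± 0.35). Cx3cr1 was 371.4, 586 and 520.5 against 461.6, 280.1 and 387.6 (0.39 ± 0.28). Cxcr4 was 1437, 3251.1 and 3904.8 against 2013.2, 2339.7 and 3274.3 (0.08 ± 0.43), Cxcr6 was 244.4, 266.3 and 118.8 against 222.7, 199.8 and 240.5, and Ccr9 and Cxcr3 differed by 0.16 ± 0.21 and 0.01 ± 0.26. Groups overlapped for all 7 receptors. Cxcr2, the receptor of Cxcl1, Cxcl2 and Cxcl5 on neutrophils, was below background on all arrays, at 13.5, 17.1 and 56.6 against 23.7, 9.8 and 51.8. Ccr6, Ccr7, Ccr8 and Cxcr5 were also below background throughout.

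Atypical receptors bind chemokines without classical signalling and clear or present them. Ackr3, a scavenger of Cxcl12, measured 27382.8, 28128.8 and 21950 in klotho-deficient roots and 33580.1, 30265.9 and 37951.4 in wild type (-0.40 ± 0.20, adjusted p = 0.794 in limma). Ackr4, a scavenger of Ccl19, Ccl21 and Ccl25, was 8121.1, 8227.4 and 10972.8 against 7251.3, 6998.2 and 6122.8 (0.41 ± 0.20, adjusted p = 0.794 in limma). The groups of both genes were apart, in opposite directions. Ackr2, a scavenger of inflammatory CC ligands, was 320, 703.9 and 606.3 against 664.8, 869.8 and 998 (-0.69 ± 0.35), where klotho-deficient replicate 2 overlapped wild type. Ccrl2, which presents chemerin, was -0.10 ± 0.43.

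Inducers of the inflammatory ligands were dim or mixed. Il6 measured 74.3, 808.3 and 56.4 in klotho-deficient roots and 10.1, 6.8 and 8.7 in wild type, so it passed background on 1 array only, klotho-deficient replicate 2. Il1b, which switches on Cxcl1 in stromal cells, was 283.1, 909.9 and 913.4 against 566.2, 466.2 and 555 (0.23 ± 0.49). Tnf, Il1a and Ifng were below background throughout. Nfkbiz, an NF-kB cofactor, was 7993.8, 10751.7 and 5343.6 against 5747.7, 4391.3 and 5695.2 (0.56 ± 0.30), and Nfkbie, an NF-kB inhibitor, was -0.35 ± 0.32. Relb, an NF-kB subunit, was -0.18 ± 0.19 and Zc3h12a, an RNase that degrades cytokine transcripts, was 0.32 ± 0.37.

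Of 7 interferon-response genes above background, 4 were highest on klotho-deficient replicate 2, as Cxcl10 was. Irf1 was highest on wild-type replicate 1, and Gbp2 and Oasl2 on wild-type replicate 3. Ifit1 was 782.6, 8495.7 and 2522.5 in klotho-deficient roots and 2635.6, 1619.8 and 1357.1 in wild type, and Rsad2, an antiviral enzyme, was 713, 7835.8 and 1304.5 against 1553, 1038.3 and 829.3. Klotho-deficient replicate 1 was the lowest array for both genes. Their differences were 0.51 ± 0.85 and 0.82 ± 0.88. Usp18, an inhibitor of interferon signalling, was 0.41 ± 0.49, and Gbp2, a guanylate-binding protein induced by interferon, was -0.47 ± 0.23.

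Proteases and the heparan sulphate carriers that hold chemokines on cell surfaces were also set beside them. Adam17, which sheds Cx3cl1, measured 3551.6, 3189.3 and 3733.8 in klotho-deficient roots and 4285.4, 4720.1 and 4473.9 in wild type, with groups apart (-0.37 ± 0.17, adjusted p = 0.77 in limma). Dpp4, which clips and inactivates Cxcl12, was 2283, 1591 and 937 against 2511.6, 2095.6 and 3217.6 (-0.77 ± 0.37), and Mmp12, a macrophage elastase, was 550.9, 3071.9 and 2309.1 against 651.4, 473.3 and 1816.1 (0.93 ± 0.80). Mmp13, a collagenase, was 0.44 ± 0.22. Sdc1 to Sdc4, Hspg2, Ext1 and Ext2 lay between -0.44 and 0.46. Among 11 receptor-signalling genes, Arrb2, which desensitises chemokine receptors, was -0.33 ± 0.23 and Prex1, a Rac activator, 0.38 ± 0.36, with Elmo1 at -0.32 ± 0.29 and Pik3r5 at 0.22 ± 0.23. Pf4 and Ppbp, platelet chemokines named outside the Ccl and Cxcl scheme, were -0.17 ± 0.33 and 0.21 ± 0.75.

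**Figure D4:**
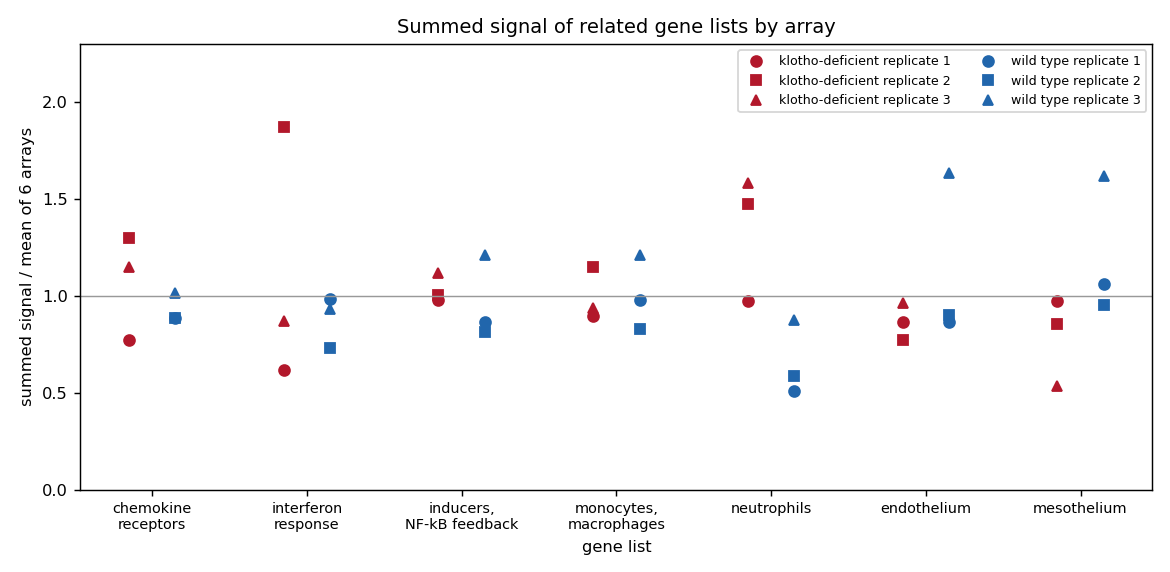
Summed signal of each gene list on each array divided by its mean over the 6 arrays, klotho-deficient arrays in red left of wild-type arrays in blue. The interferon-response sum was 33154.2 on klotho-deficient replicate 2 and 12914.6 to 17407.2 on the wild-type arrays, and the endothelial and mesothelial sums were highest on wild-type replicate 3.

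Markers of cells that make or answer chemokines are given beside these results, and their part in them was not tested. Of 8 measured monocyte and macrophage markers 7 were above background, with Itgam below it throughout. Their summed signal ran from 38725.2 to 49813.5 in klotho-deficient roots and from 35800 to 52310.1 in wild type. It was highest on wild-type replicate 3 and next on klotho-deficient replicate 2, the 2 arrays on which Ccl6 and Ccl9 were highest. That sum rests mostly on Lyz2 and Csf1r, both highest on wild-type replicate 3, as Adgre1 was. The other markers above background did not share this order. Cd68, Cd14 and Fcgr1 were highest on klotho-deficient replicate 3 and Mrc1 on klotho-deficient replicate 2, and Fcgr1 was lowest on wild-type replicate 3. Neutrophil markers summed to 1338.2 to 2172 against 696 to 1202.8, without overlap, but only 3 of 8 were above background and Csf3r, Elane, Mpo and Mmp8 were below background throughout. The calprotectin genes carried this sum: S100a9 was 592.6, 886.8 and 1100.2 in klotho-deficient roots and 26.3, 24.2 and 307.9 in wild type, and S100a8 was 349.9, 377.9 and 361.8 against 231.1, 233.6 and 231.7. Both were apart between genotypes, with an adjusted p of 0.67 in limma. T cell and thymus markers were above background in 1 of 9, with Cd3e and Cd8b1 below background throughout and sums of 753.9 to 1256 against 1200.2 to 1371.9. B cell markers were above background in 1 of 5, with Pax5 below background throughout, and summed to 427.2 to 711.9 against 507.7 to 1051.8.

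Dendritic cell markers were above background in 2 of 6, with Flt3 and Ccr7 below background throughout, and summed to 3050.7 to 3969.4 in klotho-deficient roots and 4271.8 to 5103.3 in wild type, without overlap. That sum rests on Zbtb46, at 2593.2 to 3077.1 against 3457.8 to 4548, while Itgax, the other marker above background, differed by 0.58 in the opposite direction with overlap. Mast cell markers were above background in 5 of 6 and summed to 1630.5 to 2734.7 against 2328.2 to 2454.5. Platelet markers were above it in 3 of 6, with Gp6, Gp9 and Itga2b below background throughout, and red cell markers in 2 of 3, with Hba-a1 below background throughout. Platelet sums were 8803.5 to 14216.4 against 9354.2 to 18488.9, and red cell sums 543.7 to 1044.2 against 706.7 to 1225.8. The platelet sum rests on Pf4, already given among the pathway genes, at 7956.5 to 12443 against 8698.7 to 17291.5.

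Structural cell markers varied between arrays, and some were apart between genotypes. Of 7 endothelial markers 6 were lower in klotho-deficient roots and 1 higher, with 2 apart and lower. All 6 mesothelial markers were lower, 3 of them apart. Of 5 lymphatic endothelial markers 3 were higher and 2 lower, with 1 apart each way. Groups of the other structural markers overlapped. Among all genes above background 6.95% were apart and higher and 7.86% apart and lower, and no marker passed in limma over all genes. All 7 endothelial markers were above background, summing to 25833 to 32177.9 in klotho-deficient roots, against 54597.7 on wild-type replicate 3 and 28880.8 and 30047.4 on wild-type replicates 1 and 2. Mesothelial markers, 6 of 6 above background, summed to 17014.8 to 30881.2 against 30332.6 to 51461.2, and lymphatic endothelial markers, 5 of 5, to 16452.3 to 18055.1 against 16668.2 to 21971.7. Smooth muscle sums were 141473.3 to 189917.1 against 148498.7 to 164943.9, and fibroblast and valve interstitial sums 169380.2 to 206475 against 182114.2 to 194912.1. Cardiomyocyte markers, 6 of 6 above background, summed to 62996.7 to 89419 against 54298.2 to 81599, highest on klotho-deficient replicate 2, and adipocyte markers, 3 of 4, to 20978.1 to 36106.9 against 30246.5 to 37169.5.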

How the data were processed

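RNA from 6 pools of aortic roots, 3 per genotype, was amplified with NuGEN kits and hybridised to Affymetrix mouse arrays, per the labels' protocols. The authors deposited 1 linear intensity per probe set, from 0.1 to 131884.9, and the submitters' processing notes name RMA. Each array's mean after trimming 2% at both ends was 1499.4 to 1500.2, while medians ran from 425.6 to 556.6, so arrays were scaled to a common mean. RMA commonly gives log2 values, and the sources used here give neither the making of this linear scale nor a genome build.

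The deposited intensities were taken to log2 as they stood, with nothing added and no renormalization. Of 45101 probe sets, the platform annotation gave 1 gene to 34945 and several to 932. Of those with 1 gene, 34741 had their gene identifier in RefSeq (GRCm38.p6), with 0 symbols changed. The genotype test was two-sided, by limma 3.58.1 under R 4.3.3 with 4 residual and 2.1 prior degrees of freedom, adjusted over 18193 genes. The procedure was tested on simulated data. Pools served as replicates, and p-values rest on the spread between them. A gene was below background in a genotype where no probe set of it passed the highest Bacillus control there, and its fold was then a bound against that level. The 33 members, the 8 pathway lists and the 15 marker lists were chosen with earlier results of these data known. All members are named, with values on every array for those above background in the mean of all arrays or of a genotype. Receptors above background and up to 4 genes of smallest p in each other list are named too. Other genes are named as examples. The alternatives were other normalizations, filters, offsets and probe set summaries, other variance models, a replicate block, a covariate for Y-linked transcripts, and each array left out. Promoters were read from RefSeq. Figures used matplotlib 3.10.9 in Python 3.11.15. The number of arrays limits the precision.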

Additional observations from a re-analysis of the deposited data

Results flagged for a closer look

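Probe sets annotated to several genes were outside the comparison, and 4 of them name a ligand and stood above the highest Bacillus control on all 6 arrays. The first, annotated to 10 genes with Ccl19 among them, had a mean of 3703 over the 6 arrays. Ccl19 guides dendritic cells and T cells through Ccr7, and the values were 2857.8, 3757.9 and 4918.4 in klotho-deficient roots and 2840.2, 3655.9 and 4187.9 in wild type, with overlap. The next, annotated to 9 genes with the Ccl21 copies among them, had a mean of 5188 over the 6 arrays. Ccl21, the lymphatic ligand of the same receptor, gave 1804.7, 5655.9 and 6527.5 against 5116.1, 4611.3 and 7413.2, so klotho-deficient replicate 1 was the lowest array. The 2 Ccl27 probe sets, each annotated to 5 genes, had means of 1612 and 3606 over the 6 arrays and were lower in klotho-deficient roots by -0.93 and -0.62 on the log2 scale, without overlap. These differences were not tested.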

How the results depend on the processing

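No chemokine ligand and no pathway gene passed the threshold under any of 15 alternatives, 9 with all arrays and 6 with 1 array left out, and adjusted p for the 19 ligands above background ran from 0.407 to 1.00. Of 285 differences, 253 kept their sign and 32 did not, and Ccl5, Ccl24, Ccl27a and Cx3cl1 kept it throughout. The count of all genes called was 0 in the main comparison, 2 with a trended and robust prior, 1 with dim genes left out, 1 with an offset of 100 and 1 with array weights, and 0 to 1 when an array was left out. Ligands with non-overlapping groups numbered 1, and 3 with the mean of all probe sets. With an array left out they numbered 1 to 5: 5 without klotho-deficient replicate 1, 4 without klotho-deficient replicate 2, and 3 without wild-type replicate 1 or replicate 3. Groups with fewer arrays separate more easily. The share over all genes was not counted for these alternatives, so the counts show nothing particular to the ligands. The median ligand difference of -0.04 was 0.025 with the offset, 0.32 with the mean of all probe sets, -0.21 with the Y-linked covariate, and -0.12 to 0.20 with an array left out. With the Y-linked covariate, differences turned to -0.11 for Ccl11, -0.68 for Ccl12, -1.24 for Ccl17, 0.09 for Ccl28, -0.10 for Ccl8, -0.01 for Cxcl1, -0.05 for Cxcl10, -0.12 for Cxcl12 and 0.04 for Cxcl16. That fit sets klotho-deficient replicate 1 alone against wild type. With array weights Cxcl12 was -0.04 and Cxcl16 0.14, with the offset Cxcl14 was 0.11, and with the mean of all probe sets Ccl25 was 0.01 and Cxcl14 0.37. Leaving out each array gave ranges that crossed 0 for Ccl12 (-0.07 to 1.15), Ccl17 (-0.37 to 1.79), Ccl2 (-0.95 to 0.15), Ccl25 (-0.53 to 0.13), Ccl28 (-0.36 to 0.07), Ccl6 (-0.61 to 0.06), Ccl8 (-0.09 to 1.12), Ccl9 (-0.55 to 0.19), Cxcl12 (-0.02 to 0.10), Cxcl13 (-0.50 to 0.24), Cxcl14 (-0.84 to 0.98) and Cxcl16 (-0.17 to 0.19). Beyond what each alternative's construction shows, the cause was not tested. Same-numbered deviations correlated at 0.17, -0.01 and 0.16 over genes above background, and differently numbered ones at -0.20 to 0.07. So few values, from deviations centred within each genotype, cannot decide whether replicate numbers pair the pools. With the replicate block 0 genes and 0 ligands were called and the median was -0.04. Signals near background limit the dim ligands most.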
